A study of Zea mays with 8 samples.

Results

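The genes described here are 261 of the 39604 genes measured in maize (Zea mays) anthers, chosen because their RNA was higher at the mitotic stage than after meiosis in wild-type (WT) plants. A gene was taken when it had at least 20 FPKM (fragments scaled to transcript length and to the number of fragments sequenced) in WT mitotic anthers and when its log2(FPKM + 1) was at least 2 higher there than in WT post-meiotic anthers, a 4-fold difference for abundant genes. Of all genes tested, as counted below, 1.35% were that much higher there whatever their level. Of 264 genes that met both conditions, 3 were left out by the definition, which removes microRNA precursors, genes of the organelle genomes and a few named genes. The WT values at the 2 stages therefore chose these genes and are given as a description. The rule used no value from hda108 anthers, though it was set with earlier results of these data known.

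The study set plants homozygous for a mutation of HISTONE DEACETYLASE 108 (genotype hda108/hda108, here hda108) against WT, in field-grown maize. The 4 groups were hda108 mitotic anthers, hda108 post-meiotic anthers, WT mitotic anthers and WT post-meiotic anthers, each with 2 libraries, and each library came from anthers pooled over 3 tassels. Total RNA was depleted of ribosomal RNA and sequenced with the strand kept. The deposited values hold 1 FPKM per gene and group, so the spread between replicates is unknown and no test could be run. Higher and lower refer to those single values. Anthers are whole organs that hold pollen, tapetum and wall cells, and in such bulk samples fewer cells of a type and less RNA per cell cannot be told apart.

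In a maize anther, meiosis gives haploid microspores, which are fed by the tapetum and then divide by mitosis inside the developing pollen wall to form pollen with a vegetative and a generative cell. Many RNAs used in pollen growth, among them those for wall-modifying enzymes, signalling peptides, kinases and transporters, are known to build up late, after the microspore has divided. Histone deacetylases remove acetyl groups from histones and are mostly known as repressors of transcription.

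FPKM summed over all genes to 505427 in hda108 mitotic, 701133 in hda108 post-meiotic, 1284190 in WT mitotic and 1069800 in WT post-meiotic anthers, and sequencing depth was unknown. The mutated gene itself (GRMZM2G136067) had 4.30 and 4.10 FPKM in hda108 mitotic and post-meiotic anthers, against 6.43 and 12.3 FPKM in WT. The position of the mutation was not given, and reads outside it would still be counted, which makes this a weak check of genotype. The genes tested are the 24360 that reached 1 FPKM in any of the 4 groups, and all 261 were among them.

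In hda108 anthers the same genes were mostly also higher at the mitotic stage, at far lower levels. Their median was 15.9 FPKM in hda108 mitotic anthers and 2.41 FPKM in hda108 post-meiotic anthers, against 214 FPKM in WT mitotic and 26.7 FPKM in WT post-meiotic anthers. With every group rescaled to the same FPKM sum, these medians were 31.4 and 3.44 in hda108, against 167 and 24.98 in WT, so the order of hda108 mitotic and WT post-meiotic anthers turned with the scaling. The lower and upper quartiles were 6.95 and 33.8 FPKM in hda108 mitotic, 0.796 and 7.47 FPKM in hda108 post-meiotic, 72.6 and 455 FPKM in WT mitotic and 10.6 and 72.8 FPKM in WT post-meiotic anthers. After meiosis in hda108, 78 of the 261 genes were under 1 FPKM and 10 were listed at 0. In WT at the same stage 2 genes were under 1 FPKM and 0 were listed at 0. The gene highest in WT mitotic anthers, GRMZM2G156857, singled out after its values were seen, had 311 and 18.2 FPKM in hda108 mitotic and post-meiotic anthers, against 3600 and 644 FPKM in WT. The upper end of the hda108 groups was set by a single gene, plt1, at 2288 FPKM in mitotic and 3666 FPKM in post-meiotic anthers.

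**Figure D1:**
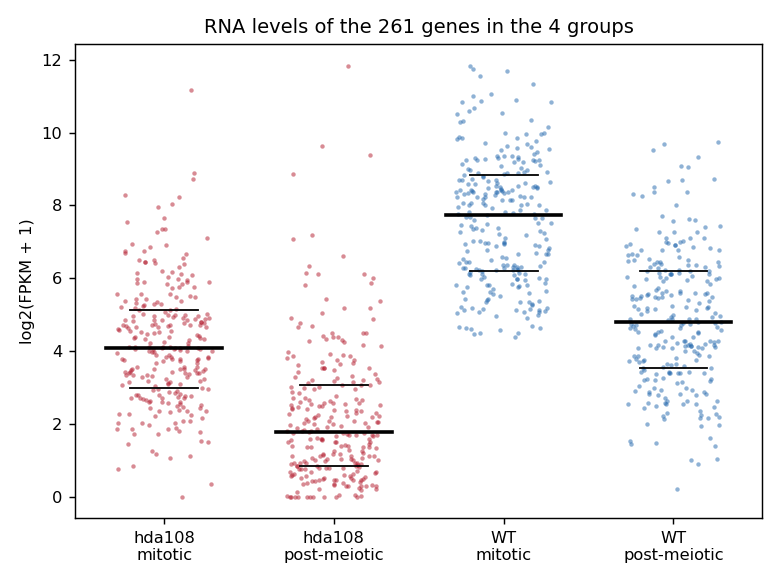
RNA level of each of the 261 genes as log2(FPKM + 1), one point per gene, in the 4 groups; thick bars are medians and thin bars quartiles over genes, and the sideways spread of points has no meaning. At each stage the hda108 group lies below its WT group, with medians of 15.9 against 214 FPKM at the mitotic stage and 2.41 against 26.7 FPKM after meiosis, and within each genotype the mitotic group lies higher; the order of hda108 mitotic and WT post-meiotic turned with rescaling.

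The stage difference was measured again in hda108, whose values the rule did not use. By the same size rule of 2 on the log2(FPKM + 1) scale, 130 of the 261 genes were higher at the mitotic stage in hda108, or 49.8%, and 0 were lower. Over all genes tested, 1.02% were higher and 2.94% lower by that rule. The median stage difference was 2.00 log2 for the 261 genes and -0.27 log2 for all genes tested. In direction alone, 240 of the 261 genes were above their post-meiotic value, 20 were below it, and 1, GRMZM2G140774, was listed at 0 in both hda108 groups. Over all genes tested 29.8% were above. After every group was rescaled to the same FPKM sum, the 2 medians were 2.55 and 0.11 log2 and 172 of the 261 genes were higher by the rule. The share of all genes tested that met the rule after rescaling is not given here, so the 172 genes are a description alone.

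Seen from the other side, 248 of the genes tested were higher at the mitotic stage in hda108, and 130 of them, or 52.4%, belonged to the 261. Among the 24099 genes tested outside the group, 118, or 0.490%, were higher by the rule, with a median of -0.28 log2.

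**Figure D2:**
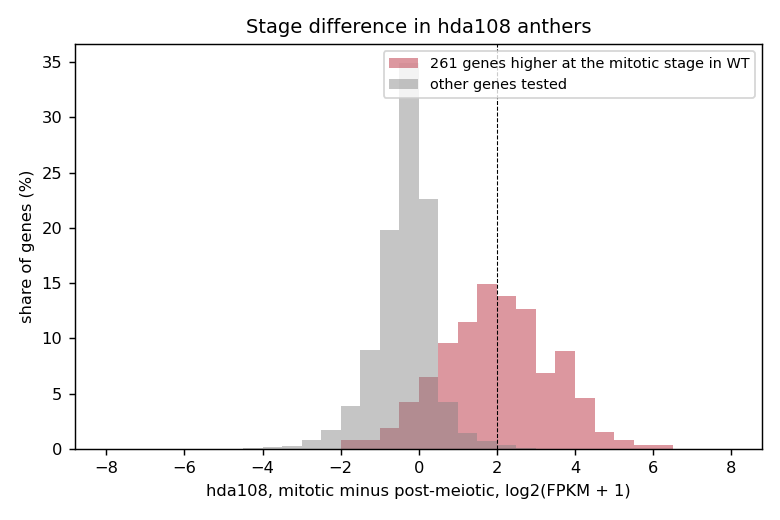
Share of genes (%) by stage difference in hda108 anthers, mitotic minus post-meiotic on the log2(FPKM + 1) scale in steps of 0.5, for the 261 genes and for the other 24099 genes tested. The 261 genes centre at 2.00 and the others at -0.28; the dashed line marks the size rule of 2.

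The size of the difference varied widely among the genes. In hda108 it ran from -1.77 to 6.05 log2, with quartiles of 1.05 and 2.89. In WT, where the choice set the lower limit, it ran from 2.00 to 6.13 with a median of 2.44. As ratios of FPKM, which the added 1 does not shrink, the median was 5.43-fold in hda108, over the 251 genes not listed at 0 after meiosis, and 5.62-fold in WT. The hda108 difference was at least as large as the WT one for 81 genes and smaller for 180. The FPKM sum over all genes was lower at the mitotic stage in hda108 and higher there in WT. Rescaling to a common sum therefore raises the hda108 ratios and lowers the WT ones, which turns the order of the 2 median ratios. The split into 81 and 180 genes holds for values before rescaling alone. The rule used the WT side of this split and of the median ratios, so both are a description. With a size of 1 log2 in place of 2, 199 of the 261 genes were higher and 4 lower in hda108, where 3.41% and 15.6% of all genes tested were. The remaining 58 differed by less than 1 log2. Across the 261 genes, which are not independent, WT and hda108 differences had a Spearman rho of 0.31.

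The share of genes that met the size rule in hda108 was larger among genes abundant in WT, and highest at 300 to 1000 FPKM. Of the 41 genes with 20 to 50 FPKM in WT mitotic anthers, 6 met it, with a median difference in hda108 of 0.98 log2. Of the 50 genes with 50 to 100 FPKM, 13 met it, with a median of 1.39 log2. Of the 66 genes with 100 to 300 FPKM, 32 met it, with a median of 1.91 log2. Of the 82 genes with 300 to 1000 FPKM, 64 met it, with a median of 2.77 log2, and of the 22 genes above 1000 FPKM, 15 met it, with a median of 2.54 log2. The added 1 shrinks differences near 1 FPKM, so ratios of FPKM were also taken over the genes not listed at 0 after meiosis. The ratio was at least 4 for 16 of 39 genes with 20 to 50 FPKM, with a median of 2.96-fold. It was so for 24 of 45 genes with 50 to 100 FPKM, with a median of 4.36-fold. For 100 to 300 FPKM the count was 38 of 66, with a median of 4.65-fold. For 300 to 1000 FPKM it was 64 of 79, with a median of 8.78-fold, and above 1000 FPKM 15 of 22, with 6.22-fold. Genes with a larger WT difference also met the size rule more often, 10 of 16 above 4 log2 against 58 of 140 between 2 and 2.5 log2.

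The 4 genes with the largest stage difference in hda108 were GRMZM2G003838, CNR3, GRMZM2G173738 and GRMZM2G309944. GRMZM2G003838 (chromosome 3, 205178928 to 205180093, B73 RefGen_v3) had 86.8 FPKM in hda108 mitotic and 0.328 FPKM in hda108 post-meiotic anthers, against 680 and 45.9 FPKM in WT. CNR3 (GRMZM2G053387, chromosome 5, 1761260 to 1762309), of the cell number regulator family, had 67.7 and 0.473 FPKM in hda108, against 396 and 86.2 FPKM in WT. GRMZM2G173738 had 136 and 2.56 FPKM in hda108, against 1295 and 190 FPKM in WT. GRMZM2G309944 (chromosome 8, 91502739 to 91503300) had 44.3 and 0.411 FPKM in hda108, against 870 and 16.4 FPKM in WT. After meiosis all 4 were at or below 2.56 FPKM in hda108, and at the mitotic stage they had between 5.10% and 17.1% of the WT level.

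**Figure D3:**
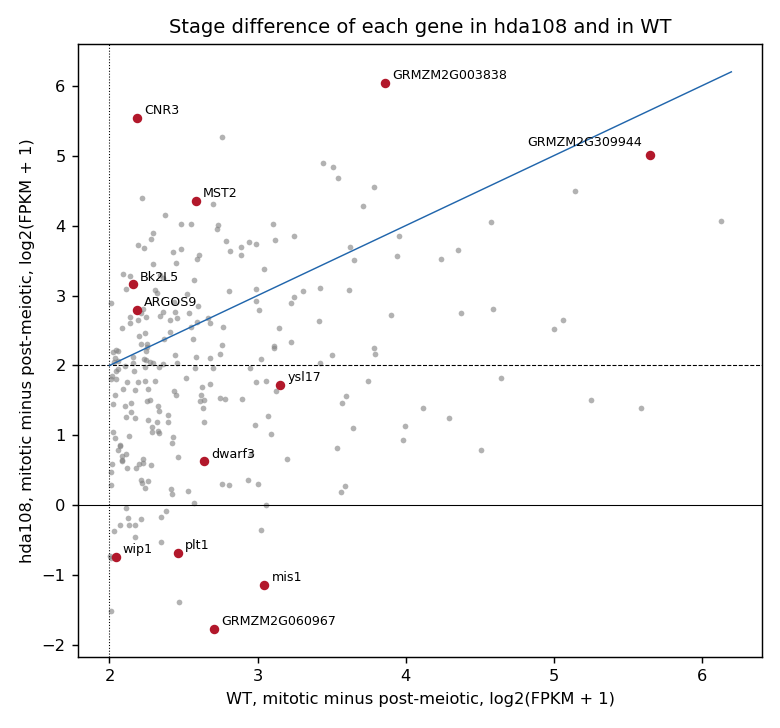
Stage difference of each of the 261 genes, mitotic minus post-meiotic on the log2(FPKM + 1) scale, in hda108 (vertical axis) and in WT (horizontal axis). Dashed and dotted lines mark the size rule of 2, the solid black line no difference in hda108 and the blue line equal differences; 130 genes lie on or above the dashed line, 20 lie below 0, and CNR3, MST2, Bk2L5 and ARGOS9 lie above the blue line.

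Levels in hda108 were next set against WT at each stage. The rule used the WT value at each stage, so these counts describe the genes and support nothing. At the mitotic stage 241 of the 261 genes were lower in hda108 by the size rule and 4 were higher, where 8.12% and 1.52% of all genes tested were. After rescaling to a common sum 155 were lower and 5 higher, with a median of -2.26 log2 for the 261 genes and 1.05 log2 for all genes tested. Before rescaling, the hda108 level was a median of 7.81% of WT, with quartiles of 4.53% and 12.8%. After meiosis 186 were lower and 7 higher, where 4.47% and 1.68% of all genes tested were. The hda108 level was then a median of 7.51% of WT, with quartiles of 2.83% and 19.3%, again before rescaling. A common FPKM sum raises these percentages, and those given for single genes in other paragraphs, more at the mitotic stage than after meiosis. All 186 genes lower after meiosis were also lower at the mitotic stage, and 55 were lower at the mitotic stage alone. After rescaling 119 were lower at both stages, 36 at the mitotic stage alone and 39 after meiosis alone. For these rescaled counts, as for the 155 and 5 above, the share of all genes tested is not given here. The hda108 mitotic level was below the WT post-meiotic level for 205 genes and at or above it for 56, with a median of 51.9% of it. After rescaling this turned to 114 below and 147 at or above, with a median of 109.95%.

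Those 2 sets of lower genes differed in abundance and in their stage difference in hda108. The 186 genes lower at both stages had a median of 325 FPKM in WT mitotic anthers, and 123 of them were higher at the mitotic stage in hda108, with a median difference of 2.45 log2. The 55 genes lower at the mitotic stage alone had a median of 57.0 FPKM in WT mitotic anthers, and 4 of them were higher in hda108, with a median of 0.79 log2. With the sets formed after rescaling, 102 of 119 and 6 of 36 were higher in hda108, with medians of 3.08 and 1.34 log2. Both sets were chosen from the same hda108 values as the stage difference, so this too is a description.

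**Figure D4:**
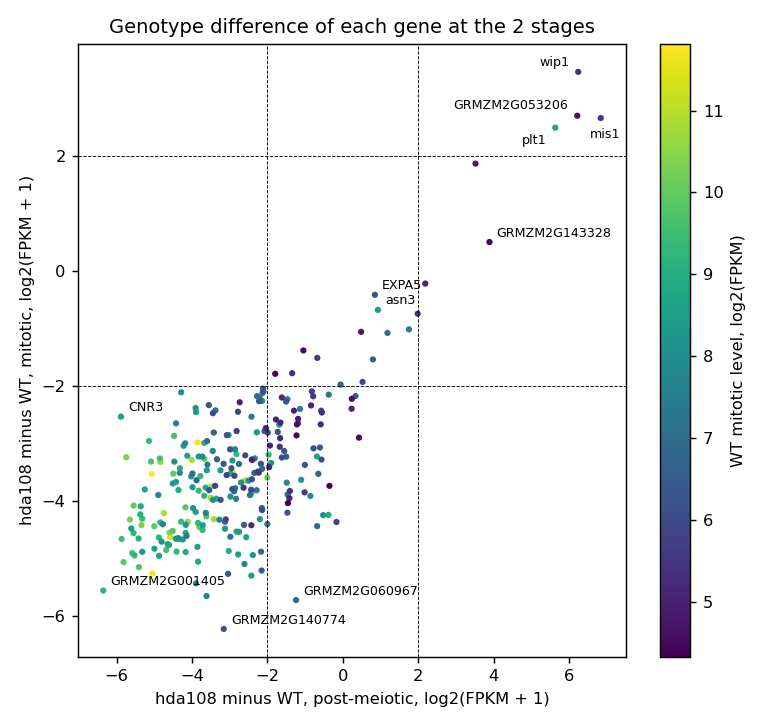
Genotype difference of each of the 261 genes, hda108 minus WT on the log2(FPKM + 1) scale, at the mitotic stage (vertical axis) and after meiosis (horizontal axis), coloured by WT mitotic level; dashed lines mark the size rule of 2. Most genes lie in the lower left, 186 of them past the rule at both stages (119 after rescaling), and wip1, mis1, plt1 and GRMZM2G053206 lie in the upper right.

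The share of the FPKM sum, which does not depend on how groups were scaled to each other, showed the same order within each genotype. The 261 genes held 2.22% of it in hda108 mitotic and 1.10% in hda108 post-meiotic anthers, against 7.92% in WT mitotic and 1.64% in WT post-meiotic anthers. The 4 genes higher in hda108 at both stages made up 28.7% and 72.6% of the group's own sum in hda108 mitotic and post-meiotic anthers, against 0.511% and 0.527% in WT. Without those 4, which were singled out after their values were seen, the shares were 1.58% and 0.300% in hda108, against 7.88% and 1.64% in WT. By rank among the genes tested, the median gene stood at percentile 73.5 in hda108 mitotic and 20.3 in hda108 post-meiotic anthers, against 96.3 in WT mitotic and 75.8 in WT post-meiotic anthers.

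Among the 25 genes with a gene name, those of wall and cell expansion came with different patterns. C5, also named pme1 (GRMZM2G125356, chromosome 10, 122250861 to 122253051), a pectin methylesterase gene known from maize pollen, was the most abundant. It had 264 and 96.1 FPKM in hda108 mitotic and post-meiotic anthers, against 2994 and 736 FPKM in WT. Its stage difference in hda108 was 1.45 log2, short of the size rule. Bk2L5 (GRMZM2G056627, chromosome 7, 154158438 to 154160973), a relative of the cell wall gene brittle stalk2, had 12.8 and 0.543 FPKM in hda108, against 204 and 44.9 FPKM in WT. It was 23.6-fold higher at the mitotic stage in hda108. EXPA5 (GRMZM2G361064), an alpha-expansin gene of wall loosening, had 56.1 and 31.9 FPKM in hda108, against 75.1 and 17.3 FPKM in WT. Its genotype difference at the mitotic stage was -0.41 log2 and turned to 0.91 after rescaling; after meiosis it was 0.85 log2, or 1.44 after rescaling.

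Of the named genes with roles in signalling and growth, psk1 (GRMZM2G044194, chromosome 7, 3025542 to 3026306), which encodes the precursor of the peptide growth factor phytosulfokine, had 122 and 35.4 FPKM in hda108 mitotic and post-meiotic anthers, against 1893 and 414 FPKM in WT. stk1 (GRMZM2G165433), a receptor-like cytoplasmic kinase gene of pollen, had 19.1 and 3.51 FPKM in hda108, against 365 and 66.4 FPKM in WT. Its mitotic to post-meiotic ratio before rescaling was 5.44-fold in hda108 and 5.50-fold in WT. RLK (GRMZM2G346466), named as a receptor-like kinase, had 15.9 and 2.92 FPKM in hda108, against 68.7 and 15.999 FPKM in WT, and its ratios were 5.43-fold and 4.29-fold. ARGOS9 (GRMZM2G082943), of a family that affects organ size, had 12.7 and 0.967 FPKM in hda108, against 94.8 and 20.1 FPKM in WT. The stage difference of psk1 in hda108, 1.76 log2, was short of the size rule, and those of stk1, RLK and ARGOS9, at 2.16, 2.10 and 2.80 log2, met it. With a common FPKM sum that of psk1 meets the rule too.

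Among the named genes with transport roles, the phosphate transporter gene pht7 (GRMZM2G112377) had 93.0 and 63.8 FPKM in hda108 mitotic and post-meiotic anthers, against 1130 and 259 FPKM in WT. ysl17 (GRMZM2G049238), of the yellow stripe-like family of metal chelate transporters, had 7.63 and 1.62 FPKM in hda108, against 127 and 13.5 FPKM in WT. por2, also named TIP2-3 (GRMZM2G125023), an aquaporin gene of the vacuole membrane, had 2.68 and 0.239 FPKM in hda108, against 34.8 and 5.57 FPKM in WT. The ratios of mitotic to post-meiotic FPKM in hda108 were 1.46-fold for pht7, 4.71-fold for ysl17 and 11.2-fold for por2, the last 2 at low levels. Before rescaling, the log2 differences of 0.54, 1.72 and 1.57 were all short of the size rule. With a common FPKM sum those of ysl17 and por2 meet the rule and that of pht7 does not. MST2 (GRMZM2G141034, chromosome 4, 29873532 to 29875971) had 82.3 and 3.07 FPKM in hda108, against 827 and 137 FPKM in WT, and its stage difference in hda108, 4.36 log2, met the rule.

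Genes of metabolism and hormone synthesis differed in how far they followed WT. dwarf3, also named CYP88A1 (GRMZM2G093195), of gibberellin synthesis, had 2.67 and 1.37 FPKM in hda108 mitotic and post-meiotic anthers, against 64.2 and 9.49 FPKM in WT. It stood at 4.15% of WT at the mitotic stage and at 14.5% after meiosis, and its stage difference in hda108 was 0.63 log2. asn3 (GRMZM2G053669), an asparagine synthetase gene, had 202 and 133 FPKM in hda108, against 323 and 69.7 FPKM in WT. It was thus 1.91-fold above WT after meiosis, and its mitotic genotype difference of -0.68 log2 turned to 0.66 after rescaling. lcyE (GRMZM2G012966), a lycopene epsilon-cyclase gene of carotenoid synthesis whose ID the name table also gives to another gene, had 17.6 and 4.57 FPKM in hda108, against 281 and 43.0 FPKM in WT. amidase1 (GRMZM2G060400) had 33.8 and 8.19 FPKM in hda108, against 472 and 113 FPKM in WT, close to 7% of WT at each stage before rescaling. With a common FPKM sum its percentage is larger at the mitotic stage than after meiosis.

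Of the transcription factor genes, OFP22 (GRMZM2G095452), of the ovate family, had 4.39 and 1.01 FPKM in hda108 mitotic and post-meiotic anthers, against 62.5 and 13.7 FPKM in WT. The MADS-box name zmm2, of the floral organ factor group, covers the members GRMZM2G316366 and GRMZM2G492156 among the 261, which RefSeq joins in 1 gene. GRMZM2G316366 had 2.42 and 0.499 FPKM in hda108, against 35.3 and 4.82 FPKM in WT. GRMZM2G492156 had 5.57 and 0.367 FPKM in hda108, against 21.7 and 3.74 FPKM in WT. Both IDs were below WT at each stage, and in both genotypes the mitotic value was the higher one. The name zmm2 was also matched to GRMZM2G359952, outside the 261, which was above WT at each stage. It had 436 and 463 FPKM in hda108, against 199 and 302 FPKM in WT. Further names were cki1 (GRMZM2G116885), prl1 (GRMZM2G134067, an ID that RefSeq also gives to another gene) and CK3 (GRMZM2G472311), which had 20.6%, 22.1% and 9.41% of the WT level at the mitotic stage and 21.1%, 76.2% and 7.80% after meiosis. For prl1 after meiosis, rescaling to a common FPKM sum turns the order, with hda108 above WT.

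**Figure D5:**
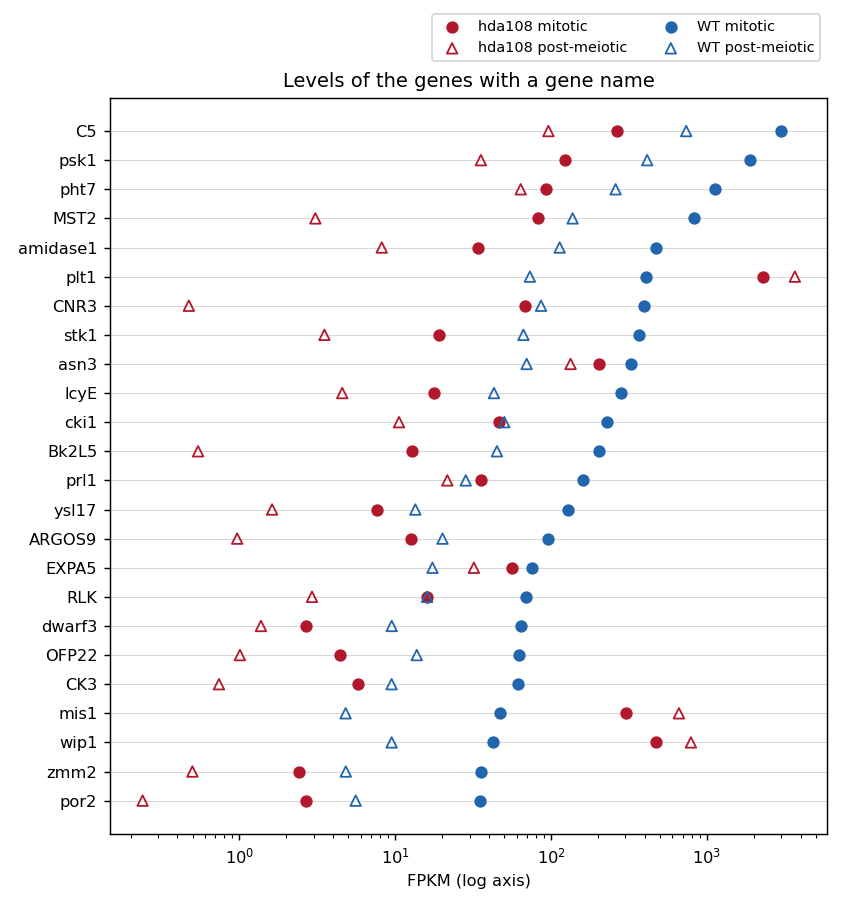
FPKM on a log axis of 24 genes with a gene name, ordered by WT mitotic level (zmm2 is GRMZM2G316366); filled circles are mitotic and open triangles post-meiotic anthers, red hda108 and blue WT. In 21 of the 24 the hda108 mitotic point lies left of the WT mitotic one, and in plt1, mis1 and wip1 both hda108 points lie right of both WT points.

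The exceptions to the low level in hda108 included a defence gene. wip1 (GRMZM2G156632), a wound-induced proteinase inhibitor gene, had 473 and 789 FPKM in hda108 mitotic and post-meiotic anthers, against 42.1 and 9.48 FPKM in WT. plt1, also named PLTP (GRMZM2G101958, chromosome 10, 4168396 to 4169548), a lipid transfer protein gene, had 2288 and 3666 FPKM in hda108, against 407 and 73.1 FPKM in WT. GRMZM2G090245, whose ID the name table gives to mis1 and to another gene, had 301 and 661 FPKM in hda108, against 46.9 and 4.80 FPKM in WT. GRMZM2G053206 (chromosome 2, 232655975 to 232657347) had 162 and 462 FPKM in hda108, against 24.1 and 5.24 FPKM in WT. In all 4 the hda108 levels exceeded both WT levels, and the hda108 value was the lower one at the mitotic stage, except that plt1 differed between stages by 0.086 log2 in the other direction with quantile normalization. GRMZM2G055101, GRMZM2G084005 and GRMZM2G143328 were the other 3 genes higher in hda108 after meiosis by the size rule, with 80.1, 35.2 and 26.5 FPKM in hda108, against 6.09, 6.97 and 0.862 FPKM in WT; GRMZM2G055101 and GRMZM2G084005 were singled out after their values were seen.

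At the other end, 4 genes had the largest negative genotype difference at the mitotic stage. GRMZM2G140774 (chromosome 4, 168149331 to 168150275), which RefSeq classes as a transcribed pseudogene, was listed at 0 in both hda108 groups, against 73.5 and 7.93 FPKM in WT mitotic and post-meiotic anthers. GRMZM2G060967 (chromosome 3, 224223267 to 224223934) had 1.18 and 6.41 FPKM in hda108, against 113 and 16.5 FPKM in WT. GRMZM2G445296 had 3.09 and 0.382 FPKM in hda108, against 204 and 15.95 FPKM in WT. GRMZM2G001405 had 11.9 FPKM in hda108 mitotic anthers and was listed at 0 in hda108 post-meiotic anthers, against 604 and 80.8 FPKM in WT. GRMZM2G060967 was also the gene with the lowest stage difference in hda108, -1.77 log2, and GRMZM2G339327 followed among genes below WT at both stages, with 25.8 and 68.8 FPKM in hda108, against 505 and 90.2 FPKM in WT; its genotype difference after meiosis turned to 0.22 log2 after rescaling.

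Just inside the level of 20 FPKM were GRMZM5G887130 and GRMZM2G143328, with 20.04 and 21.1 FPKM in WT mitotic anthers, and just outside it GRMZM5G842502 and GRMZM2G139460, with 19.9 and 19.6 FPKM. Just inside the difference of 2 log2 were GRMZM2G035134 and GRMZM5G863645, whose stage differences in hda108 were -0.72 and 0.28 log2. Just outside it were GRMZM2G403190 and GRMZM2G163095, with 2.27 and 2.11 log2 in hda108.

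The 261 genes were spread over the genome. Each of the 10 chromosomes held between 14 and 39 of them, from 0.796% of its genes tested on chromosome 5 to 1.42% on chromosome 3, and 2 lay on unplaced scaffolds. Their loci were short, with a median span of 2164 bases against 3408 bases for all genes tested. For 17 of the genes the file gives the same locus to another gene ID, and in 3 loci both IDs were among the 261, so reads may be split between the IDs there. Without those 17 genes, 119 of 244 met the size rule in hda108. RefSeq had an entry for 151 of the 261 IDs, 148 of them matched to protein-coding genes alone.

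Other genes of pollen maturation and tube growth were measured from a list matched by symbol. Of its 21 genes tested, C5, MST2 and stk1 belonged to the 261. In hda108, 3 of the 21 were higher at the mitotic stage and 1 was lower, with a list median of 0.30 log2. Over all genes tested 1.02% were higher and 2.94% lower. The 3 were MST2 and stk1, both among the 261, and pcp (GRMZM2G072448). By genotype and before rescaling, 10 of the 21 were lower in hda108 at the mitotic stage and 12 after meiosis, and 0 were higher. Over all genes tested 8.12% and 4.47% were lower at the 2 stages. The summed level of the list was 6431 and 4550 FPKM in hda108 mitotic and post-meiotic anthers, against 42797 and 24852 FPKM in WT. None of its genes was listed at 0. These counts and sums were not rescaled. A common FPKM sum raises hda108 against WT at each stage, and fewer of the 21 genes are then lower by the size rule. The profilin gene pro3 (GRMZM5G876285), for an actin-binding protein, had 1044 and 835 FPKM in hda108, against 5875 and 3372 FPKM in WT. The name abp1 was matched to 2 IDs that went opposite ways. GRMZM2G116204 lay above WT, with 121 and 197 FPKM in hda108, against 81.9 and 139 FPKM in WT. GRMZM2G117603 lay below WT, with 180 and 66.0 FPKM in hda108, against 717 and 373 FPKM in WT. These 2 IDs and pro3 were picked after their values were seen. Of the cell wall loosening list, 3 of 12 genes tested belonged to the 261, namely C5, Bk2L5 and EXPA5, and in hda108 1 of the 12 was higher at the mitotic stage and 3 lower. Of the MADS-box list, 2 of 12 belonged to them, the zmm2 IDs GRMZM2G316366 and GRMZM2G492156, and 1 was higher and 0 were lower.

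None of the 261 was on the lists of tapetum and pollen wall, meiosis, green tissue, starch, sugar transport and invertase, flavonoid or cell division genes. The definition fixed this for the sugar gene ivr2 (GRMZM2G089836), which met both conditions and was left out by name. It had 166 and 23.6 FPKM in WT mitotic and post-meiotic anthers. The make-up of the lists matters too: mst1 was on the sugar list, while MST2, among the 261, was placed on the pollen list. The 21 tapetum and pollen wall symbols gave 5 genes. At the mitotic stage in hda108, 0 genes of any of these lists were higher by the size rule, where 1.02% of all genes tested were. Lower were 2 of 4 tapetum, 0 of 9 meiosis, 6 of 11 green tissue, 0 of 14 starch, 1 of 12 sugar, 2 of 12 flavonoid and 1 of 19 cell division genes. Of all genes tested 2.94% were lower. Sums over the measured genes of the lists that mark other tissues were as follows. Green tissue genes, with none listed at 0, summed to 446 and 2740 FPKM in hda108 mitotic and post-meiotic anthers, against 643 and 2786 FPKM in WT. Tapetum genes, with none listed at 0, summed to 55.9 and 85.2 FPKM in hda108, against 88.0 and 138 FPKM in WT. Of these sums ms32 alone held 51.2 and 52.3 FPKM in hda108, against 60.2 and 84.2 FPKM in WT, while ms8 was higher in hda108 after meiosis by the size rule, with 7.02 FPKM in hda108, against 0.608 FPKM in WT. Meiosis genes summed to 35.1 and 40.1 FPKM in hda108, against 23.3 and 40.3 FPKM in WT, with mre11b listed at 0 in WT mitotic anthers. These sums were not rescaled, and the FPKM sum over all genes was lower in hda108 than in WT at each stage. With a common sum the order of the genotypes turns at the mitotic stage for green tissue and tapetum genes. After meiosis it turns for green tissue and meiosis genes. By genotype, 0 green tissue and 0 meiosis genes met the size rule at either stage before rescaling. Over all genes tested 8.12% were lower and 1.52% higher at the mitotic stage, and 4.47% and 1.68% after meiosis. The part of these lists in the results above was not tested.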

How the data were processed

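RNA was sequenced from 8 libraries, 2 for each of 4 groups of maize anthers. The authors deposited FPKM values, and the table has 1 column for each group. How they combined the libraries of a group, or scaled groups, is not given in the sources used. Listed without roles in the submitters' processing notes are the build B73 RefGen_v3 and the tools Cuffdiff 2.2.1, Cufflinks, TopHat2 2.0.13, SAMtools, Trimmomatic 0.33 and CASAVA 1.8. Columns named for the homozygous genotype were read as hda108. Whether locus starts count from 0 or 1 was not stated.

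With 1 value per group the planned limma fit could not be made, and there is no p-value, error or counting interval; depth is unknown. Differences are on the log2(FPKM + 1) scale, hda108 minus WT or mitotic minus post-meiotic, and count as higher or lower from 2 upwards. Genes tested had at least 1 FPKM in at least 1 group. The members and lists were chosen with earlier results of these data known.

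Gene IDs were looked up in RefSeq genes of Zm-B73-REFERENCE-NAM-5.0 for names, without those of clones and markers. List members were found by symbol alone. Named genes were the 3 markers CNR3, MST2 and Bk2L5, the 24 named genes highest in WT mitotic anthers, the 4 at each end of the hda108 stage and mitotic genotype differences, and those nearest the thresholds; others were chosen after their values were seen. Promoter motifs were not analysed here. Python 3.11.15, numpy 2.4.6, pandas 2.3.3 and matplotlib 3.10.9 were used, tested on simulated data. Alternatives were rescaling, quantile normalization, a pseudocount of 0.1, a size of 1 log2, other filters and other choices of members.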

Additional observations from a re-analysis of the deposited data

Results flagged for a closer look

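For 8 of the genes named above the stage difference had opposite signs in the 2 genotypes: the mitotic value was the lower one in hda108 and the higher one in WT. The difference between genotypes was not tested, since each group has 1 value. In hda108 the stage difference was -1.77 log2 for GRMZM2G060967, -1.51 for GRMZM2G053206, -1.38 for GRMZM2G339327, -1.13 for GRMZM2G090245, -0.74 for wip1 (GRMZM2G156632), -0.72 for GRMZM2G035134, -0.68 for plt1 (GRMZM2G101958) and -0.19 for GRMZM2G084005. None reached the size of 2, while all were at least 2 higher in WT by definition. After rescaling they were -1.61, -1.04, -0.93, -0.66, -0.27, -0.27, -0.21 and 0.27, so that GRMZM2G084005 changed sign. The sign of plt1 changed with quantile normalization, to 0.086.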

How the results depend on the processing

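No paired analysis was possible because the file gives 1 value per group, and for the same reason no replicate could be left out. Counts are given as higher and lower members. For the stage difference in hda108, 130 and 0 with a median of 2.00 log2, the median was 2.55 after rescaling and 2.54 with quantile normalization. With a pseudocount of 0.1 it was 2.40, and 1 member was lower. From 1 log2 upwards 199 were higher and 4 lower. The median was 2.14 over members with at least 50 FPKM, 2.27 over the 164 members chosen from rescaled WT values, and 1.97 without shared loci; the last 2 choices were made after seeing the data. For the mitotic genotype difference, 4 and 241 with a median of -3.53 log2, 155 were lower after rescaling, with a median of -2.26 while that of all genes tested moved from -0.02 to 1.05. The median was -2.74 with quantile normalization, -3.65 with a pseudocount of 0.1 and -3.56 without shared loci. With at least 50 FPKM it was -3.69 and 1 was higher; chosen from rescaled values it was -3.80, with 2 higher and 158 lower. After meiosis, 7 and 186 with a median of -2.92 log2, the median was -2.48 after rescaling, -2.78 with quantile normalization, -3.59 with a pseudocount of 0.1, -3.26 with at least 50 FPKM (1 higher), -3.26 chosen from rescaled values (2 higher) and -2.87 without shared loci. The cause of these shifts was not tested; fewer members enter the choices by level and scale. Over every gene measured, 0.626% were higher by stage in hda108, 5% lower by genotype at the mitotic stage and 2.75% after meiosis; among genes with at least 20 FPKM in some group these shares were 2.67%, 18.2% and 10.8%.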
